A study of Mus musculus with 75 samples.

Results

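The genes described here form the nuclear and cytosolic receptors through which the liver senses drugs and other foreign chemicals, with their cytochrome P450 targets and the first enzyme of haem synthesis. A gene was included where a probe set of the array carried its symbol in the annotation table. Of 10 listed genes, 9 were found on 11 probe sets, among 19147 genes and 38385 probe sets in all. They are Nr1i3, Nr1i2, Ahr, Cyp1a2, Cyp1a1, Cyp3a11, Cyp3a25, Cyp3a13 and Alas1. Por, the listed electron donor of microsomal P450 enzymes, was not analysed here. Where a gene had more than 1 probe set, the one with the highest mean in the tissue was used.

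Nr1i3 encodes the constitutive androstane receptor CAR and Nr1i2 the pregnane X receptor PXR. Both pair with the retinoid X receptor on DNA and switch on Cyp2b, Cyp2c and Cyp3a genes when drugs are present. Ahr encodes the aryl hydrocarbon receptor, which pairs with ARNT and switches on Cyp1a1 and Cyp1a2. Cyp1a2 is made in the hepatocytes around the central vein without any inducer, whereas Cyp1a1 is usually low until an inducer is given. Every P450 needs haem, and Alas1 is the rate-limiting enzyme of its synthesis in liver.

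The study asked what AM251, an inverse agonist of the cannabinoid receptor CB1, does in liver and epididymal white fat, and how this depends on diet and on CB1. Male CB1-/- (knockout) mice and control littermates (wild type), labelled C57BL/6, ate a high-fat diet with 59.4% of energy from fat or chow with 13% for 14 weeks, starting at 2 months of age. AM251 at 10 mg/kg, or the methylcellulose vehicle that every control also received, was given by gavage once a day for 2 days, and tissue was taken the next morning, 1 mouse per array. The 75 arrays, 39 of liver and 36 of fat, fall into 16 groups of tissue, diet, genotype and treatment. Many numbers recur in both tissues, such as 45 in high-fat knockouts on AM251. Liver and fat arrays may thus come from the same mice and were not taken as independent. Fat of high-fat knockouts on vehicle and of chow knockouts on AM251 had 3 arrays, liver of high-fat knockouts on vehicle had 4, and the other groups had 5. The labels name no tissue-specific driver of the deletion, so no result separates CB1 of liver from CB1 elsewhere.

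Cnr1, the gene of CB1, gave no check of the genotype labels. On 1 of its 2 probe sets the log2 intensity in fat ran between 4.95 and 7.33 on arrays labelled knockout, against 5.03 and 8.02 on arrays labelled wild type, and the other probe set overlapped as well. Whether these probes lie in the deleted part is not given in the sources used here, so knockout and wild type below mean the label. Averaged over the other arrays of its tissue, the correlation of each array was at least 0.963 in liver and at least 0.977 in fat. Liver arrays 17 and 15, both of chow knockouts on vehicle, had the lowest liver values at 0.963 and 0.982, and calls that rest on them are given with and without them, an alternative chosen after seeing the data. Values are log2 intensities, changes are differences of group means ± standard error (SE) from limma, and a gene is called at an adjusted p under 0.05 over all 19147 genes. Whether groups overlap is given as a description of the arrays. The share of all genes without overlap was not counted, so it adds no test. The number of arrays limits the precision of every value, and in whole tissue fewer cells of a type cannot be told apart from less RNA per cell.

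To show regulatory sequence for 2 genes that were called with AM251, Cyp1a2 and Nr1i3, and 2 that were called between diets, Cyp3a11 and Cyp3a25, the 250 bases before their start sites are printed from RefSeq on GRCm38.p6, 5′ to 3′ along the gene. Capitals mark the nuclear receptor half-sites AGGTCA and AGTTCA and the AhR core GCGTG, all searched on both strands.
Cyp1a2 (chr9:57683656-57683905, minus strand): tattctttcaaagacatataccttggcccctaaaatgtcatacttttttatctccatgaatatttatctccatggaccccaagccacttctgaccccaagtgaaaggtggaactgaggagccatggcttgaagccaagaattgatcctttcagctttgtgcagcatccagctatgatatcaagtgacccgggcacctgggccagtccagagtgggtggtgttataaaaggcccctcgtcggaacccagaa
Nr1i3 (chr1:171213720-171213969, plus strand): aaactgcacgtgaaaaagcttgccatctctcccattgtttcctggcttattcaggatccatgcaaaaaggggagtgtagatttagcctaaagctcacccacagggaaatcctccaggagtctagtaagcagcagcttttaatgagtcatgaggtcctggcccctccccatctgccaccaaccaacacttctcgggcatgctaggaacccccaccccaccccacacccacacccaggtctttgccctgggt
Cyp3a11 (chr5:145879855-145880104, minus strand): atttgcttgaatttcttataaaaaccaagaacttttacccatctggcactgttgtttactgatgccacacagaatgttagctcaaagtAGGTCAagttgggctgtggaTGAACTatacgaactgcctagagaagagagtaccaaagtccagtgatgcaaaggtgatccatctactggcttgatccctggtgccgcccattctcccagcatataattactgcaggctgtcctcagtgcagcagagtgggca
Cyp3a25 (chr5:146009619-146009868, minus strand): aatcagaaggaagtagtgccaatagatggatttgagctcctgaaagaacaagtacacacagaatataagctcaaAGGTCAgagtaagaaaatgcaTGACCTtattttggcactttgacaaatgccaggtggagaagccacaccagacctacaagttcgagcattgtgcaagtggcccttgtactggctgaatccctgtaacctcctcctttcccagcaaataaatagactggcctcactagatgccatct
The Cyp1a2 and Nr1i3 windows hold none of these letters. The Cyp3a11 window holds AGGTCA at -162 and AGTTCA on the opposite strand at -142, with 14 bases between them. In the Cyp3a25 window AGGTCA lies at -176 and again on the opposite strand at -155, with 15 bases between. Of 32851 RefSeq windows of this length, 14% hold AGGTCA, 11.8% hold AGTTCA, 28.2% hold GCGTG and 3.7% hold at least 2 of these half-sites. Cyp1a1, the neighbour of Cyp1a2 on chromosome 9, has GCGTG at -54, while the windows of Nr1i2 and Cyp3a13 have no match. Alas1 has 1 window with GCGTG at -222 and another with none. RefSeq windows were found for 9 of the 10 listed genes. A match is a string of letters and was not tested as a binding site.

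In liver of high-fat wild-type mice AM251 raised Cyp1a2, Nr1i3 and Nr1i2, so 3 of 9 genes rose and 0 fell, where 1.91% of all genes were called. Cyp1a2, the P450 that clears caffeine, showed the largest called rise of the 3, of 2.07-fold. Its log2 intensity was 12.69, 12.74, 12.54, 12.31 and 12.48 on the 5 AM251 arrays, against 11.95, 10.94, 12.14, 11.34 and 11.17 on the 5 vehicle arrays. Every AM251 array lay above every vehicle array, and the vehicle arrays were the more spread out. The change was 1.05 ± 0.17 (adjusted p = 0.000103, limma).

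Nr1i3 was at 10.45, 10.63, 10.52, 10.42 and 10.65 in AM251-treated high-fat wild-type livers, against 10.17, 9.31, 9.63, 9.82 and 10.00 on vehicle. The groups did not overlap, and the AM251 arrays lay within 0.23 of each other. CAR transcript thus changed by 0.75 ± 0.16 (adjusted p = 0.00536, limma), which is 1.68-fold. Nr1i2 was at 7.20, 7.72, 7.51, 7.20 and 7.43 with AM251, against 7.11, 6.50, 6.49, 6.91 and 7.10 with vehicle. The highest vehicle array came within 0.09 of the lowest AM251 array. PXR transcript changed by 0.59 ± 0.14 (adjusted p = 0.0128, limma), or 1.51-fold. This call rests on single arrays: the adjusted p was 0.0798 without vehicle array 2, 0.0701 without vehicle array 3 and 0.0687 without AM251 array 35. With only these 10 arrays in the fit it was 0.0549.

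Alas1 was not called in the same livers, although its groups did not overlap. Its log2 intensity was 13.31, 12.84, 13.42, 12.91 and 12.92 with AM251, against 11.81, 11.14, 12.01, 11.87 and 12.18 with vehicle. The lowest AM251 array stood 0.66 above the highest vehicle array. The difference was 1.28 ± 0.40 (adjusted p = 0.109, limma across all groups). With only these 10 arrays in the fit the adjusted p was 0.00159, and the SD of Alas1 in the groups left out of that fit reached 0.99.

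The Cyp3a genes and Ahr moved less. Cyp3a11, the main drug-metabolising Cyp3a of mouse liver, averaged 13.25 ± 0.08 (SD, n = 5) with AM251 and 13.04 ± 0.21 (SD, n = 5) with vehicle in high-fat wild-type mice. Cyp3a25, a second hepatic family member, averaged 12.33 ± 0.11 with AM251 and 12.25 ± 0.25 with vehicle (SD, n = 5 each). Cyp3a13, a form also made in gut, averaged 10.04 ± 0.50 with AM251 and 9.77 ± 0.40 with vehicle (SD, n = 5 each). None of these passed the test, and the arrays of both treatments overlapped. Ahr changed by -0.14 ± 0.16 and Cyp1a1 by 0.07 ± 0.12, also without a call. On its other probe set Cyp3a13 differed by 0.46 ± 0.18 and was not called either (adjusted p = 0.332, limma over probe sets).

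**Figure D1:**
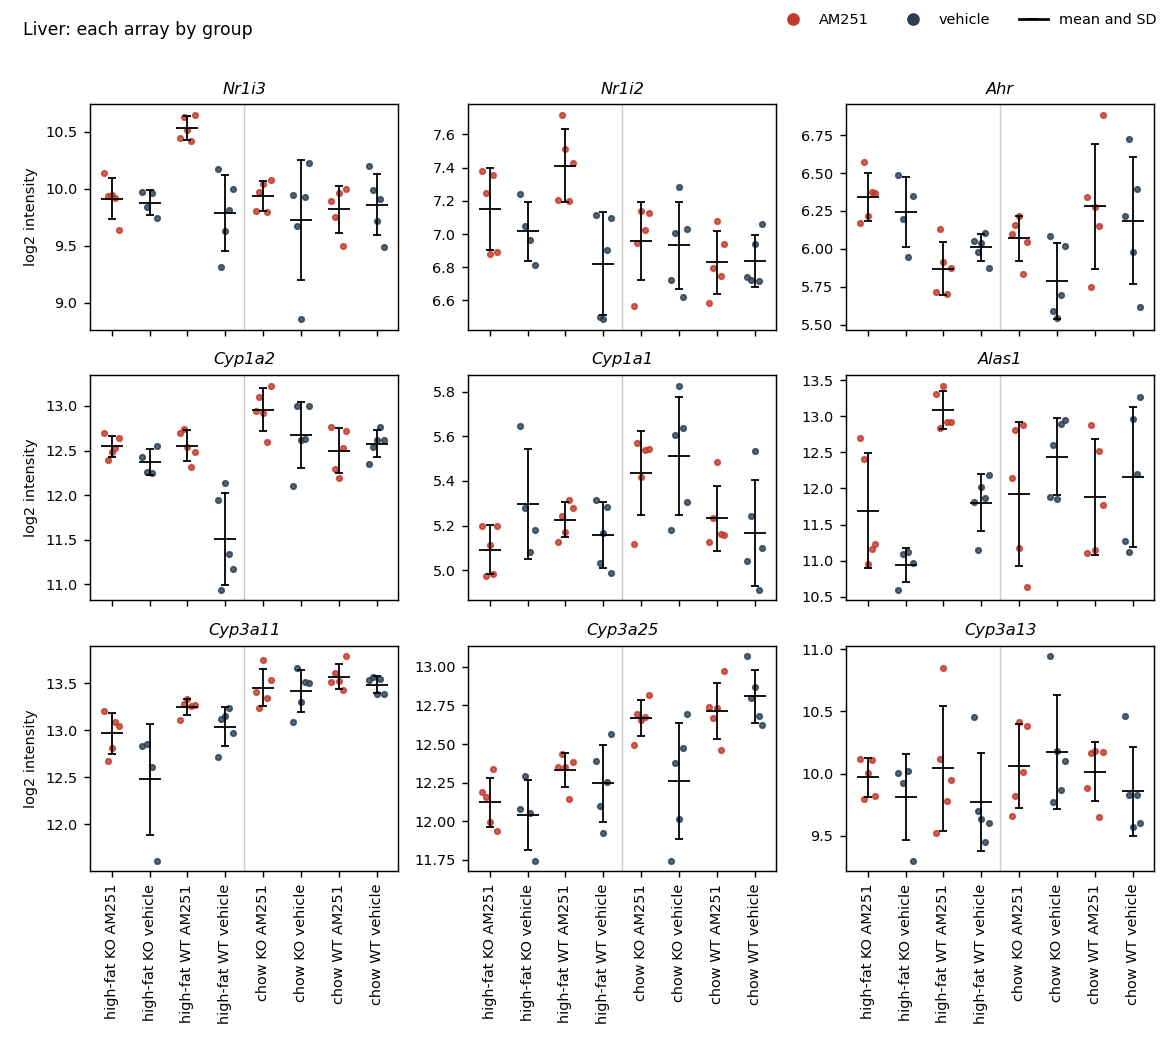
Log2 intensity of each gene on every liver array (points), with the group mean and SD (black), by diet, genotype and treatment; red is AM251 and dark blue is vehicle, and KO and WT are knockout and wild type. Cyp1a2 was lowest in high-fat wild-type mice on vehicle, at a mean of 11.51, and Nr1i3 and Alas1 were highest in high-fat wild-type mice on AM251, at means of 10.54 and 13.08.

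In livers of knockouts, AM251 changed none of the 9 genes past the threshold in limma. On the high-fat diet 0 of 9 were called (0.0104% of all genes) and 1 had an unadjusted p under 0.05, as 3.36% of all genes did. In chow knockouts the count was 0 of 9 (0.125% of all genes), and 1 again reached that unadjusted level, as 13.9% of all genes did. With the knockouts of both diets averaged 0 of 9 were called (0.0157% of all genes), and 2 reached the unadjusted level, as 9.19% of all genes did. Cyp1a2 was at 12.69, 12.40, 12.49, 12.53 and 12.64 in high-fat knockouts on AM251, against 12.43, 12.26, 12.25 and 12.55 on vehicle. These groups overlapped, and the difference was 0.17 ± 0.18. Nr1i3 differed by 0.03 ± 0.17 and Nr1i2 by 0.13 ± 0.15 in high-fat knockouts. Alas1 had the largest difference of the 9 there, 0.75, and was not called. It averaged 11.69 ± 0.80 (SD, n = 5) with AM251 and 10.94 ± 0.24 (SD, n = 4) with vehicle, and these arrays overlapped.

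Cyp3a11 had the smallest p of the genes in high-fat knockouts. It was at 13.21, 12.67, 12.81, 13.09 and 13.05 with AM251, against 12.84, 12.85, 12.61 and 11.61 with vehicle. The single vehicle array 44 lay far below the other 3, which overlapped the AM251 arrays. The difference was 0.49 ± 0.16 (adjusted p = 0.999, limma), and 0.20 without array 44. In chow knockouts Cyp3a25 had the smallest p of the genes, at 12.67 ± 0.12 with AM251 and 12.26 ± 0.38 with vehicle (SD, n = 5 each), a change of 0.41 ± 0.13 (adjusted p = 0.157, limma). The 2 lowest vehicle arrays there were array 15, at 11.74, and array 17, at 12.01, and without them the change was 0.15 (adjusted p = 0.797, limma).

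Chow-fed wild-type mice also showed 0 of 9 genes called with AM251 in limma (0% of all genes). Unadjusted, 0 of the 9 reached that level, against 10.8% of all genes. Cyp1a2 averaged 12.50 ± 0.25 with AM251 and 12.58 ± 0.15 with vehicle (SD, n = 5 each). Nr1i3 averaged 9.82 ± 0.21 with AM251 and 9.86 ± 0.27 with vehicle (SD, n = 5 each). Alas1 was at 12.88, 11.15, 12.51, 11.77 and 11.10 with AM251, against 11.27, 11.12, 12.96, 12.19 and 13.27 with vehicle. Both treatments spanned nearly the same range, with an SD of 0.80 with AM251 and 0.97 with vehicle.

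Whether the AM251 response itself differed was tested directly. Between genotypes on the high-fat diet 0 of 9 genes were called (0.564% of all genes, limma). Of the 9, 3 had an unadjusted p under 0.05, as did 7.46% of all genes. The Cyp1a2 response was 0.17 in knockouts and 1.05 in wild type, a difference, coded wild type minus knockout, of 0.87 ± 0.24 (adjusted p = 0.106, limma). For Nr1i3 this difference was 0.72 ± 0.24 (adjusted p = 0.268, limma) and for Nr1i2 0.46 ± 0.20 (adjusted p = 0.584, limma). None of the 9 passed in the main fit, but the Cyp1a2 call depends on the setting. It passed in 2 of 19 fits that left out 1 array. Cyp1a2 passed without wild-type vehicle array 1 (adjusted p = 0.0371, limma) or array 3 (adjusted p = 0.025, limma) and with array weights (adjusted p = 0.0177, limma). It did not pass in limma with quantile normalisation (adjusted p = 0.121), the offset of 16 (adjusted p = 0.127) or the filter on dim genes (adjusted p = 0.0761). With only the compared groups the adjusted p was 0.101 (limma). Nr1i3 passed with array weights (adjusted p = 0.0283, limma), but in 0 of 19 fits that left out 1 array. On chow the same test called 0 of 9 (0% of all genes), and 1 had an unadjusted p under 0.05, as did 7.51% of all genes.

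Between diets in wild-type mice the response differed for 1 of 9 genes (0.251% of all genes). The Cyp1a2 response was 1.05 on the high-fat diet and -0.08 on chow, a difference of 1.13 ± 0.24 (adjusted p = 0.0177, limma). Without high-fat wild-type vehicle array 2 the adjusted p was 0.0533, and with only the 4 groups of the contrast in the fit it was 0.0551. Nr1i3 differed by 0.79 ± 0.23 (adjusted p = 0.195, limma), Nr1i2 by 0.60 ± 0.20 (adjusted p = 0.329, limma) and Alas1 by 1.56 ± 0.57 (adjusted p = 0.47, limma).

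**Figure D2:**
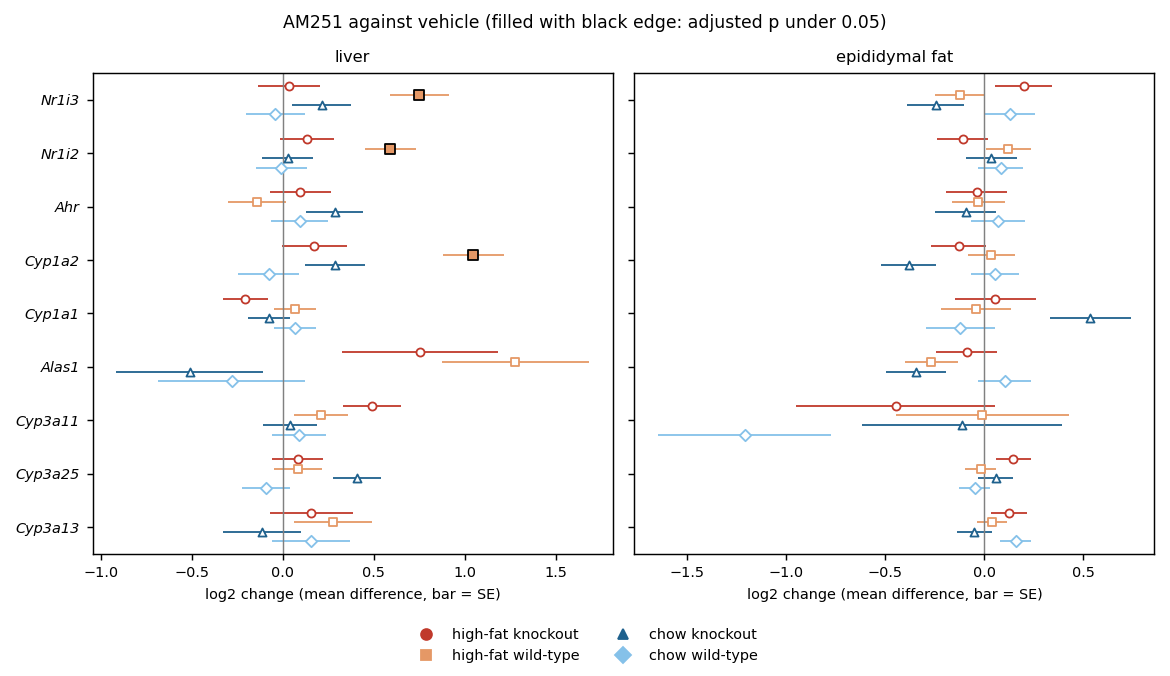
Log2 change with AM251 against vehicle (points, bars are SE) for each gene in liver and fat, by diet and genotype; filled symbols with a black edge passed an adjusted p of 0.05. The 3 filled symbols are Nr1i3, Nr1i2 and Cyp1a2 in liver of high-fat wild-type mice, at 0.75, 0.59 and 1.05, and fat has none.

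The other genes of these pathways, from lists chosen with earlier results of the data known, give the setting. Of 24 measured CAR and PXR targets, 4 rose and 3 fell with AM251 in high-fat wild-type liver, where 1.91% of all genes were called. Their median change was -0.02, beside -0.01 over all genes. Cyp2c29, a P450 that CAR activators raise, changed by 1.28 ± 0.12 there (adjusted p = 5.44e-09, limma), with 13.92 on AM251 and 12.63 on vehicle. Gstm3, a glutathione transferase, changed by -2.00 ± 0.31 (adjusted p = 8.28e-05, limma). Cyp2b10, the standard CAR target in mouse liver, was singled out after its values were seen. It averaged 7.57 with AM251 and 4.92 with vehicle, a change of 2.65 ± 0.56 (adjusted p = 0.00425, limma).

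Some CAR and PXR targets rose in knockouts as well. Cyp2c29 changed by 1.18 ± 0.13 in high-fat knockouts (adjusted p = 9.4e-07, limma) and by 0.62 ± 0.12 in chow knockouts (adjusted p = 0.0244, limma). Without arrays 15 and 17 the change in chow knockouts was 0.53 and not called (adjusted p = 0.24, limma). Cyp2c55, a related P450, changed by 2.57 ± 0.33 in high-fat knockouts (adjusted p = 3.09e-05, limma). So 2 of 24 targets rose there and 0 fell, where 0.0104% of all genes were called. With both diets averaged 3 of 24 rose in knockouts and 0 fell (0.0157% of all genes), the third being Cyp2b10 at 2.18 ± 0.41 (adjusted p = 0.0331, limma). For Cyp2c29 the response on the high-fat diet differed between genotypes by 0.10 ± 0.18 (adjusted p = 0.971, limma). In chow wild-type mice 0 of 24 passed (0% of all genes), and Cyp2c29 there changed by 0.20 ± 0.12 (adjusted p = 0.547, limma).

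Of 7 genes grouped around microsomal P450 (Cyb5a, Cyb5b, Cyb5r3, Pgrmc1, Pgrmc2, Cyp51 and Ephx1), 1 rose and 4 fell with AM251 in high-fat wild-type liver. In this comparison 1.91% of all genes were called. The list mixes electron donors with other genes, so its count is not a measure of electron supply to P450. Cyb5b, the outer mitochondrial membrane form of cytochrome b5, changed by -0.88 ± 0.10 (adjusted p = 1.8e-07, limma), and Cyb5r3, a cytochrome b5 reductase, by -0.78 ± 0.13 (adjusted p = 2e-04, limma). Cyp51, a sterol-synthesis P450, and Pgrmc2, a haem-binding membrane protein, were the other falls, and Cyb5a, the microsomal cytochrome b5, was the rise. Of 10 haem genes 1 rose, Cpox, a later step of the pathway that Alas1 begins, by 0.54 ± 0.14 (adjusted p = 0.0266, limma). None of 15 receptor partners and co-regulators, 5 AhR targets or 4 other Cyp3a genes passed in this comparison.

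Hal and Tat were the cell markers called with AM251 in high-fat wild-type liver, where 1.91% of all genes were called. Of 7 pericentral markers 0 passed, and their summed intensity ran between 37783 and 40508 with AM251, against 37265 and 40336 with vehicle in high-fat wild-type liver. Of 3 periportal markers 1 fell, Hal, with sums between 17166 and 19547 with AM251, against 16006 and 18189 with vehicle. Of 4 hepatocyte markers 1 fell, Tat, and their sums ran between 38980 and 43481 with AM251, against 41687 and 50647 with vehicle. None of the markers of adipocytes, macrophages, endothelium, bile duct, mesothelium, lymphocytes, red blood cells or pancreas passed. The part of these shifts in the results was not tested.

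On vehicle, the high-fat diet lowered Cyp1a2 and Cyp3a25 in wild-type liver, so 2 of 9 genes fell and 0 rose, where 1.69% of all genes were called. Cyp1a2 was at 11.95, 10.94, 12.14, 11.34 and 11.17 on the high-fat diet, against 12.35, 12.54, 12.62, 12.77 and 12.62 on chow. No high-fat array reached the chow range, and the chow arrays were close together. The change was -1.07 ± 0.17 (adjusted p = 0.000169, limma). Cyp3a25, the gene with a pair of AGGTCA half-sites printed above, was at 12.39, 12.10, 11.92, 12.25 and 12.56 on the high-fat diet, against 13.07, 12.80, 12.87, 12.68 and 12.63 on chow. Its groups came within 0.06 of each other without overlap, and the change was -0.56 ± 0.13 (adjusted p = 0.0155, limma). The adjusted p of Cyp3a25 was 0.0611 without high-fat array 2, 0.0621 without high-fat array 3, 0.0546 without chow array 1 and 0.0503 without chow array 3.

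In knockout liver 2 of 9 genes fell with the high-fat diet and 0 rose, where 17% of all genes were called, so the count lies near what all genes show. Cyp3a11 was at 12.84, 12.85, 12.61 and 11.61 on the high-fat diet, against 13.09, 13.66, 13.30, 13.52 and 13.50 on chow. All 4 high-fat arrays lay below all 5 chow arrays, and the change was -0.94 ± 0.16 (adjusted p = 9.17e-05, limma). Without chow arrays 15 and 17 it was -1.08, with an adjusted p of 0.000259. Alas1 was at 10.59, 11.09, 11.12 and 10.96 on the high-fat diet, against 11.88, 12.61, 11.86, 12.90 and 12.95 on chow. These groups were 0.74 apart, and the change was -1.50 ± 0.43 (adjusted p = 0.014, limma). Without arrays 15 and 17 it was -1.88, with an adjusted p of 0.0141. Cyp3a25 differed by -0.22 with all arrays (adjusted p = 0.278, limma) and by -0.47 without those 2 (adjusted p = 0.0249, limma).

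Cyp3a11 in wild type was at 12.71, 13.12, 13.15, 13.24 and 12.97 on the high-fat diet, against 13.53, 13.56, 13.39, 13.55 and 13.39 on chow. The groups did not overlap, but the difference of -0.45 ± 0.15 was not called (adjusted p = 0.126, limma). Of 4 other Cyp3a genes, Cyp3a44 and Cyp3a59 fell with the high-fat diet in both genotypes. Cyp3a59 changed by -1.64 ± 0.31 in knockouts (adjusted p = 0.00038, limma) and by -1.37 ± 0.29 in wild type (adjusted p = 0.0081, limma). Cyp3a44 changed by -1.06 ± 0.15 in knockouts (adjusted p = 1.39e-05, limma) and by -0.83 ± 0.14 in wild type (adjusted p = 0.000576, limma). Its mean over the liver arrays was only 3.66, below the median of 4.79 over all probe sets there. Cyp3a genes are close copies of each other, so probes of one may also read another, and the values of this family are uncertain on that account.

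Among CAR and PXR targets, 0 of 24 rose and 11 fell with the high-fat diet in knockout liver, while 1 rose and 4 fell in wild type. All genes were called at 17% in knockouts and 1.69% in wild type, so these counts do not show a difference between genotypes. Without arrays 15 and 17, 9 of 24 targets fell in knockouts, all of them among the 11, where 7.46% of all genes were called. Ces2a, a carboxylesterase, had the smallest p of the list in both, at -1.28 ± 0.13 in knockouts (adjusted p = 1.41e-07, limma) and -1.41 ± 0.12 in wild type (adjusted p = 1.58e-09, limma). The single rise in wild type was Cyp2b9, a P450 that is higher in female mice, at 4.53 ± 0.70 (adjusted p = 0.000166, limma). Of 5 AhR targets Nqo1 fell in knockouts, by 0.91 on the log2 scale, and Tiparp rose in wild type, by 0.58. Of 15 partners 5 rose in knockouts, Arnt, Dnajc7, Ppargc1a, Ncoa2 and Ptges3, but without arrays 15 and 17 only Dnajc7 did. In wild type 0 of 15 passed. Of 10 haem genes Hmox1, which breaks haem down, and Fech rose in knockouts with and without those arrays, and Blvrb fell with all arrays but not without them (adjusted p = 0.195, limma). Cell markers moved with the diet in wild-type liver too. Of 6 adipocyte markers 1 rose, Fabp4, with sums between 314 and 674 on the high-fat diet, against 243 and 328 on chow. Of 3 periportal markers 1 rose and 1 fell, with sums between 16006 and 18189 on the high-fat diet, against 18577 and 20215 on chow, which did not overlap. In knockout liver 1 of 7 pericentral markers, Rhbg, fell, with sums between 35805 and 38081 on the high-fat diet, against 34033 and 42011 on chow. Markers of other lists were called there too, with and without arrays 15 and 17. Apob (hepatocyte), Hsd17b13 (periportal) and Cela1 (pancreas) changed by 1.70, 0.71 and 0.94. Adipoq (adipocyte) and Krt19 (bile duct) changed by -0.44 and -0.69. Pecam1 (endothelium) rose with all arrays but was not called without those arrays. Their part in the results was not tested.

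**Figure D3:**
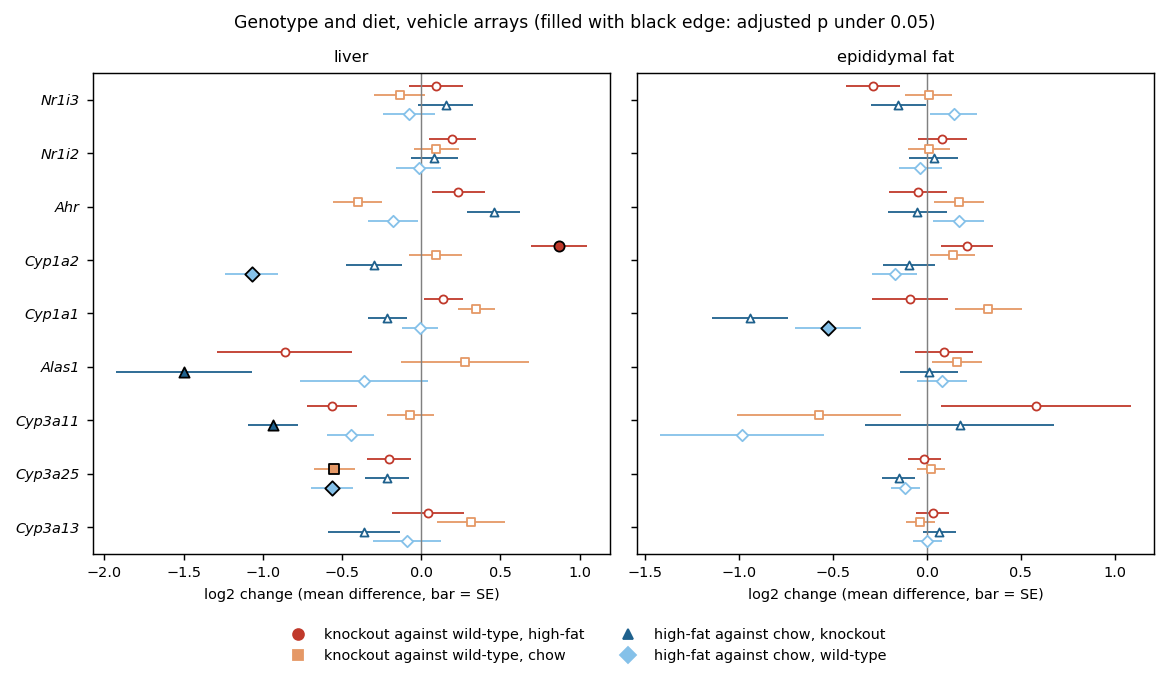
Log2 change (points, bars are SE) for each gene on vehicle arrays of liver and fat, for knockout against wild type on each diet and for high-fat against chow in each genotype; filled symbols with a black edge passed an adjusted p of 0.05. In liver Cyp1a2 stands at 0.87 for knockout against wild type and at -1.07 for high-fat against chow, and in fat Cyp1a1 in wild type is the only filled symbol, at -0.53.

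On the high-fat diet, Cyp1a2 was higher in knockout than in wild-type liver, the 1 call among 9 genes where 1.19% of all genes were called. It was at 12.43, 12.26, 12.25 and 12.55 on arrays labelled knockout, against 11.95, 10.94, 12.14, 11.34 and 11.17 on arrays labelled wild type. The groups did not overlap, and the difference was 0.87 ± 0.18 (adjusted p = 0.00626, limma). With only these 2 groups in the fit the adjusted p was 0.0762. The same 5 wild-type vehicle arrays serve in this difference, in the high-fat against chow difference of wild-type mice and in the AM251 change of high-fat wild-type mice. The means of Cyp1a2 over the other 7 liver groups lay between 12.37 and 12.96, against 11.51 in that group.

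Cyp3a11 was at 12.48 ± 0.59 (SD, n = 4) in high-fat knockouts and 13.04 ± 0.21 (SD, n = 5) in high-fat wild type, a difference of -0.56 ± 0.16 (adjusted p = 0.0735, limma). The low knockout array 44 again lay at 11.61. Without that array the difference was -0.27 (adjusted p = 0.475, limma). Without knockout array 40, knockout array 41 or wild-type array 1 the adjusted p was 0.0349, 0.033 or 0.0352. Among CAR and PXR targets 0 of 24 rose and 5 fell in high-fat knockouts, where 1.19% of all genes were called. Cyp2b9 led them at -4.61 ± 0.74 (adjusted p = 0.00053, limma). The AhR target Nqo1 fell by 0.95 and Ephx1, the microsomal epoxide hydrolase, fell by 0.59 on the log2 scale. Cidec, a lipid-droplet protein on the adipocyte list, fell as 1 of 6 markers, with sums between 240 and 317 in knockouts, against 314 and 674 in wild type, and its part was not tested.

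On chow, Cyp3a25 was lower in knockout than in wild-type liver, the 1 call among 9 genes where 6.77% of all genes were called. It was at 11.74, 12.38, 12.01, 12.47 and 12.69 on arrays labelled knockout, against 13.07, 12.80, 12.87, 12.68 and 12.63 on arrays labelled wild type. The highest knockout array overlapped the lowest wild-type arrays. The difference was -0.55 ± 0.13 (adjusted p = 0.00783, limma), but -0.29 without knockout arrays 15 and 17, the lowest 2, where it was not called (adjusted p = 0.334, limma). The number of all genes called in this comparison was 154 without those arrays and 1297 with them. Cyp1a1 differed by 0.35 ± 0.12 (adjusted p = 0.0632, and 0.192 without those arrays, limma) and Ahr by -0.40 ± 0.16 (adjusted p = 0.12, and 0.317 without them, limma). Of 15 partners 0 rose and 4 fell, Arnt, Hsp90aa1, Ptges3 and Dnajc7, with Arnt, the partner of AhR, at -0.69 ± 0.17 (adjusted p = 0.011, limma). Without arrays 15 and 17, 0 of 15 partners passed, and Arnt differed by -0.22 (adjusted p = 0.522, limma). None of the markers that follow passed without them either. Of 4 hepatocyte markers 1 fell, Apob, with sums between 39981 and 44883 in knockouts, against 41943 and 49143 in wild type, and of 4 bile duct markers 2 rose, with sums between 123 and 168 in knockouts, against 118 and 160 in wild type. The part of these in the results was not tested.

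Across the 39 liver arrays, the genes most like each member by Pearson correlation of log2 intensity are a description, since the arrays share groups and diets. Cyp1a2 was most like Igfbp2 (r = 0.86), Serpina1e (r = 0.79) and C8b (r = 0.76). For Nr1i3 they were Hadha (r = 0.76), Hrg (r = 0.76) and Slc16a12 (r = 0.74), and for Nr1i2 N4bp2l1 (r = 0.76), Cpsf4l (r = 0.75) and Bid (r = 0.74). Cyp3a11 was most like its near copy Cyp3a44 (r = 0.85), which was dim at a mean of 3.66, and Cyp3a25 was most like Cyp3a59 (r = 0.81). Alas1 had the weakest likeness, with Slc25a37, a mitochondrial iron importer, at r = 0.63. Neither receptor was among the 3 genes nearest to any P450.

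In epididymal fat AM251 changed none of the 9 genes past the threshold in limma. Beside each count stands how many of the 9 had an unadjusted p under 0.05, then the share of all genes at that level. On the high-fat diet the count was 0 of 9 in knockouts (0% of all genes, before adjustment 0 of the 9 and 3.72%). In wild type it was 0 of 9 (1.11% of all genes, before adjustment 0 of the 9 and 13.4%). On chow it was 0 of 9 in knockouts (0.0157% of all genes, before adjustment 3 of the 9 and 8.13%). Chow wild type also had 0 of 9 (0% of all genes, before adjustment 2 of the 9 and 13.4%). With the knockouts of both diets averaged it was 0 of 9 (0% of all genes, before adjustment 2 of the 9 and 5.76%). The response differed between genotypes for 0 of 9 on the high-fat diet (0.407% of all genes, before adjustment 0 of the 9 and 10.8%). On chow it differed for 0 of 9 (0.00522% of all genes, before adjustment 3 of the 9 and 14.8%). It differed between diets in wild type for 0 of 9 (0% of all genes, before adjustment 0 of the 9 and 10.5%). Cyb5b and Cyp51 fell among the 7 genes grouped around microsomal P450 in high-fat wild-type fat, and none of the other pathway lists had a member called with AM251 in fat.

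Most of these genes were dim in fat, where the median over all probe sets was 5.53. Group means of Nr1i2 ran between 3.50 and 3.65, of Cyp3a25 between 3.32 and 3.53, of Cyp1a2 between 4.62 and 5.00 and of Cyp3a13 between 5.00 and 5.25. Those of Cyp1a1 ran between 5.01 and 6.48, and its high-fat means, at most 5.10, lay below that median. The file gives no detection calls, so no level here is called present or absent. Nr1i3 lay between 5.27 and 5.65 and Ahr between 5.92 and 6.09, with no difference called. Alas1 was bright in fat too, with group means between 11.57 and 11.93. In high-fat wild-type fat Alas1 was at 11.66, 11.63, 11.54, 11.43 and 11.60 with AM251, against 11.90, 11.77, 11.83, 11.93 and 11.76 with vehicle. These groups did not overlap, but the difference of -0.27 ± 0.13 was not called (adjusted p = 0.382, limma). Its sign was opposite to that in high-fat wild-type liver, where Alas1 was not called either.

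**Figure D4:**
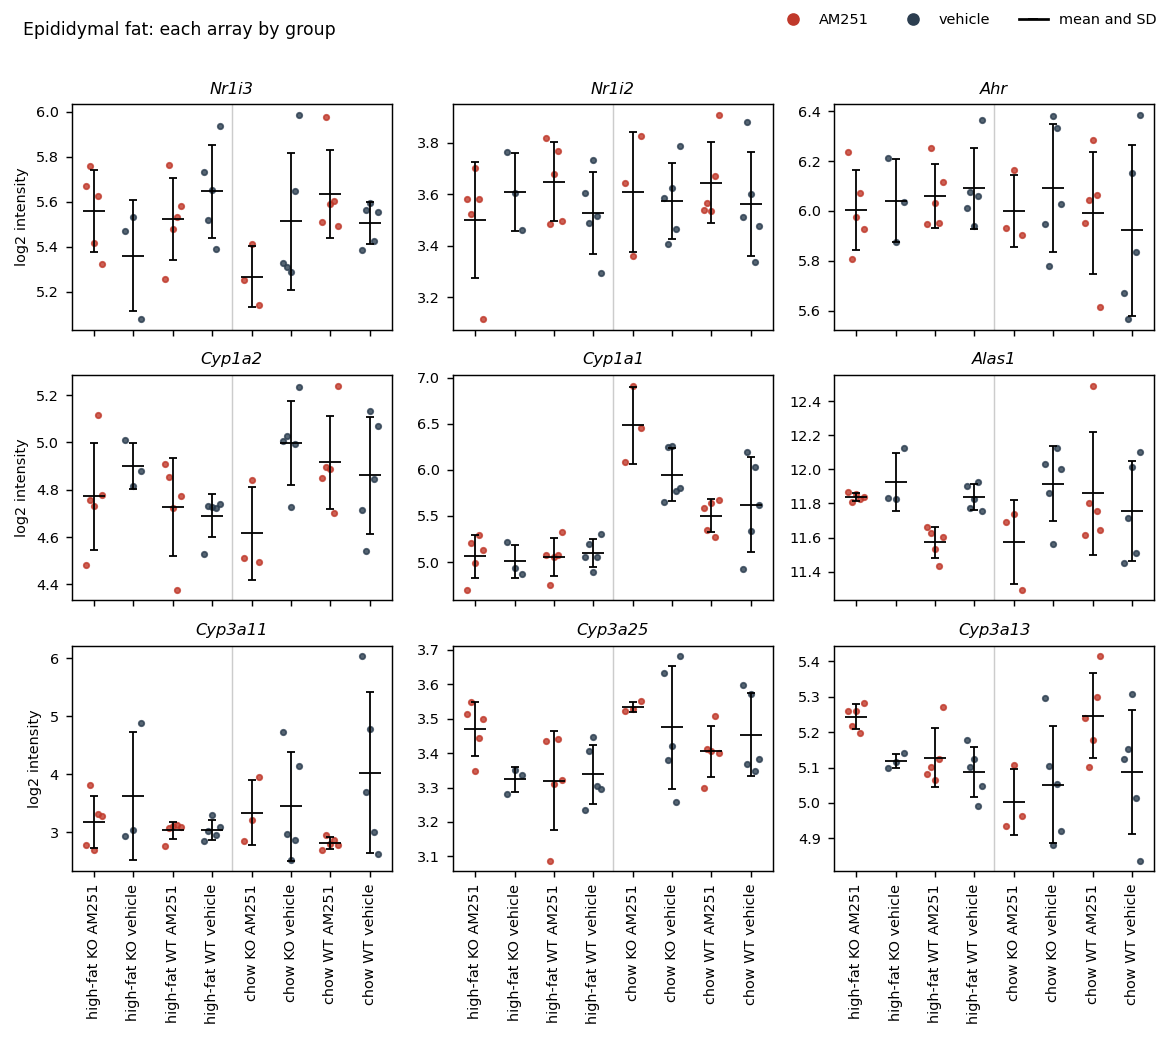
Log2 intensity of each gene on every fat array (points), with the group mean and SD (black), by diet, genotype and treatment; red is AM251 and dark blue is vehicle. Cyp1a1 had high-fat group means between 5.01 and 5.10 and chow group means between 5.50 and 6.48, beside a median of 5.53 over all probe sets. On vehicle its diet difference was -0.53 in wild type, which was called, and -0.94 in knockouts, which was not.

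The high-fat diet lowered Cyp1a1 in wild-type fat, the 1 call among 9 genes where 24.5% of all genes were called, so this count does not set the members apart. Cyp1a1 was at 5.05, 5.19, 4.89, 5.05 and 5.30 on the high-fat diet, against 4.93, 6.20, 5.34, 6.03 and 5.62 on chow. The groups overlapped through 1 low chow array. The change was -0.53 ± 0.18 (adjusted p = 0.0266, limma). It did not pass without high-fat array 1, 4 or 5, with adjusted p of 0.0501, 0.0697 and 0.0511, or without chow array 2 or 4, with 0.123 and 0.0979. Nor did Cyp1a1 pass in limma with array weights (adjusted p = 0.0614), only the compared groups (adjusted p = 0.0939) or the replicate block (adjusted p = 0.235). Macrophage markers moved with the diet here, with 3 of 6 risen and sums between 3675 and 7628 on the high-fat diet, against 2513 and 3052 on chow. Of 4 mesothelial markers 2 fell, with sums between 1488 and 2745 on the high-fat diet, against 2363 and 3465 on chow. Of 3 lymphocyte markers 1 rose, with sums between 1135 and 1909 on the high-fat diet, against 592 and 670 on chow. Markers of exocrine pancreas summed to between 1099 and 1831, against 426 and 705 on chow, with 1 of 3 risen. Of the 7 genes used as pericentral markers in liver 2 fell, with sums between 13794 and 18454 on the high-fat diet, against 23700 and 28120 on chow. The 4 hepatocyte markers summed to far less, between 78.1 and 86.9 on the high-fat diet, against 95.5 and 381 on chow. Of 3 periportal markers 1 fell, with sums between 97.7 and 125 on the high-fat diet, against 224 and 1465 on chow. The sums of macrophage, lymphocyte, pancreas, hepatocyte, pericentral and periportal markers did not overlap between diets. In fat the genes of the liver and pancreas lists were not read as cells of those organs.

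In knockout fat 0 of 9 genes were called between diets (0.00522% of all genes, limma). Before adjustment 7.07% of all genes reached that level, and of the 9 only Cyp1a1 did. It was at 5.21, 4.93 and 4.87 on the high-fat diet, against 5.66, 6.25, 6.26, 5.77 and 5.81 on chow. The groups did not overlap, and the difference was -0.94 ± 0.20 (adjusted p = 0.166, limma). Macrophage sums there ran between 2615 and 2724 on the high-fat diet, against 2411 and 3048 on chow, and mesothelial sums between 3048 and 3274, against 2761 and 3274. The part of these cells in the Cyp1a1 values was not tested. AM251-treated groups showed the same order, with 5.06 ± 0.23 (SD, n = 5) in high-fat knockouts and 6.48 ± 0.42 (SD, n = 3) in chow knockouts, and 5.06 ± 0.20 (SD, n = 5) in high-fat wild type and 5.50 ± 0.18 (SD, n = 5) in chow wild type. Over the 36 fat arrays Cyp1a1 was most like Pth1r (r = 0.87), Megf10 (r = 0.86) and Tmem79 (r = 0.84).

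Between genotypes in fat 0 of 9 genes were called on the high-fat diet (15.9% of all genes, limma) and 0 of 9 on chow (0.0575%, limma). Before adjustment 0 of the 9 reached that level in either, against 26.9% of all genes on the high-fat diet and 9.05% on chow. Haem genes around Alas1 did differ in fat on the high-fat diet. In knockouts against wild type, where 15.9% of all genes were called, 2 of 10 rose and 3 fell, among them Alad, the step after Alas1, at 1.05 ± 0.16 (adjusted p = 3e-05, limma), and Hmox1 at -2.95 ± 0.62 (adjusted p = 0.00101, limma). With high-fat feeding in wild type, where 24.5% of all genes were called, 3 of 10 rose and 4 fell, with Alad at -1.10 ± 0.14 (adjusted p = 1.15e-06, limma) and Hmox1 at 3.56 ± 0.54 (adjusted p = 1.04e-05, limma). Both comparisons share the high-fat wild-type vehicle arrays. Alas1 itself differed by 0.09 and 0.08 in them. Cell markers differed between these genotypes too. Macrophage sums ran between 2615 and 2724 in high-fat knockouts, against 3675 and 7628 in high-fat wild type. Lymphocyte sums ran between 534 and 759, against 1135 and 1909, and mesothelial sums, which were higher in knockouts, between 3048 and 3274, against 1488 and 2745. The part of cell types in the haem gene values was not tested.

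Cyp3a11 was listed near the floor on most fat arrays but was higher on a few. In chow wild type it was at 2.69, 2.94, 2.79, 2.86 and 2.79 with AM251, against 6.03, 3.68, 4.78, 3.00 and 2.62 with vehicle. The AM251 arrays were alike, whereas the vehicle arrays ranged widely. The difference of -1.21 ± 0.44 was not called (adjusted p = 0.244, limma). Albumin, a liver product, followed the same arrays: 5 of 36 arrays had Cyp3a11 above 4, and on these Alb lay between 7.36 and 8.49, against 4.14 and 8.29 on the other 31. The 4 measured hepatocyte markers summed to between 231 and 414 on those 5, against 76.9 and 377 on the others. The genes most like Cyp3a11 in fat were Mup3 (r = 0.86), Apoa2 (r = 0.85) and Alb (r = 0.83), all liver products. The part of liver RNA in the fat values of Cyp3a11 was not tested.

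**Figure D5:**
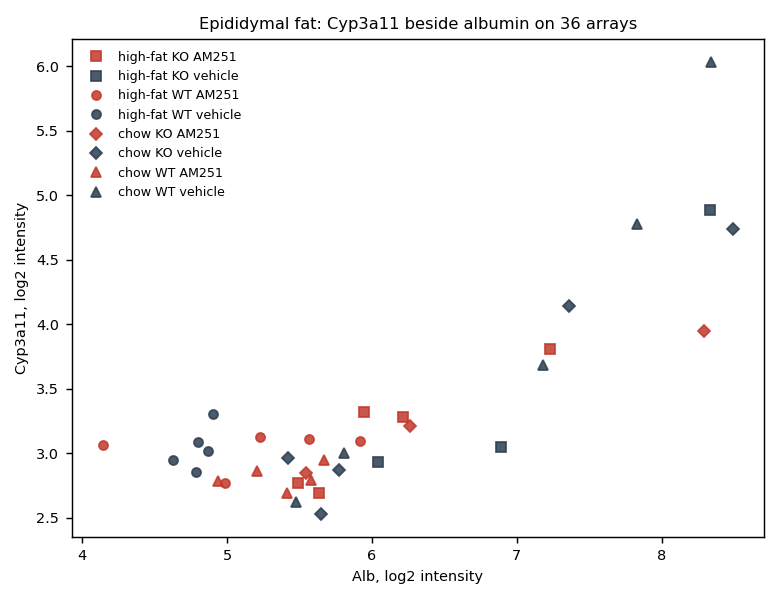
Log2 intensity of Cyp3a11 (y axis) against albumin, Alb (x axis), on the 36 fat arrays; colour gives the treatment and shape gives diet and genotype. All 5 arrays with Cyp3a11 above 4 had Alb above 7.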

How the data were processed

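The deposited values are linear microarray intensities that, per the submitters' processing notes, came from RMA, whose version is not given in the sources used here. RMA as a method fits quantile-normalised probe values, which assumes similar overall distributions, and whether both tissues were normalised together is not given in the sources used here. The median log2 intensity was 4.79 in liver and 5.53 in fat, so levels were not compared between tissues. Of 38385 probe sets, 24478 carried 1 symbol and 65 several, and probe sets with several were not used. Values were log2-transformed and 1 probe set per gene was kept, the one with the highest mean in the tissue. In each tissue all 8 groups entered a single fit with limma 3.58.1 in R 4.3.3 (lmFit, contrasts.fit, eBayes, two-sided). Benjamini-Hochberg adjustment ran over 19147 genes, with a threshold of 0.05. Groups came from the labels, and replicates within a tissue are separate mice. Named genes are all members, up to 4 genes of the pathway lists with the smallest p past the threshold in a comparison, those behind a list count of 5 or fewer, and the 3 most correlated genes per member. The members and the lists were chosen with earlier results of these data known. The fit was tested on simulated data. Alternatives were quantile normalisation, an added offset of 16, a filter on dim genes, array weights, only the compared groups, a replicate block and leaving out arrays.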

Additional observations from a re-analysis of the deposited data

Results flagged for a closer look

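Of 126 sets of 4 or 5 arrays of a gene and group, 7 held an array that Dixon's gap test flagged. Chance gives about 1 in 20, so this count lies near the chance share. In liver all 3 were of Cyp3a13. High-fat knockout vehicle array 44 lay at 9.30, the high-fat wild-type vehicle array 1 at 10.46 and the chow wild-type vehicle array 1 at 10.46. Cyp3a11 on the same liver array 44, at 11.61, was not flagged, with a gap ratio of 0.807 under the critical 0.829. In fat there were 4: Nr1i3 at 5.98 on chow wild-type AM251 array 11, Cyp3a11 at 2.77 on high-fat wild-type AM251 array 33, Cyp1a2 at 4.53 on high-fat wild-type vehicle array 1 and Alas1 at 12.49 on chow wild-type AM251 array 12.

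The response of hepatic Cyp1a2 to AM251 in wild-type mice differed between the high-fat diet and chow by 1.13 on the log2 scale (adjusted p = 0.0177, limma), tested as an interaction.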

How the results depend on the processing

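The number of the 9 genes called changed by more than 1.5 times in these cases. For knockout against wild type on chow in liver, with 1 call, it was 2 with quantile normalisation, 2 with the filter on dim genes, 0 with only the compared groups, 0 with array weights and 0 without arrays 15 and 17, an alternative chosen after seeing the data. For the difference between diets in the wild-type liver response it was 2 with array weights and 0 with only the compared groups. With array weights it was 2 for the genotype difference in the high-fat liver response, 2 for knockout against wild type on the high-fat diet in liver and 1 for the diet difference in knockout fat. For the diet difference in wild-type mice it was 1 in liver and 0 in fat with only the compared groups. With array weights the count in wild-type fat stayed at 1, but the called gene changed. Cyp3a11 passed (adjusted p = 0.0378, limma) and Cyp1a1 did not (adjusted p = 0.0614, limma).

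Leaving out single arrays gave 0 to 1 for the genotype difference in the high-fat liver response, 0 to 1 for the diet difference in the wild-type liver response, 1 to 2 for knockout against wild type in liver on either diet, 1 to 2 for diet in wild-type liver and 0 to 2 for diet in wild-type fat. No direction turned in any of the alternatives for a called gene. Cyp1a2 and Nr1i3 passed in all 10 fits that left out 1 array of the AM251 comparison in high-fat wild-type liver. Over all genes, knockout against wild type on chow in liver had 1297 calls, but 276 with array weights and 3 with only the compared groups.

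Sample numbers shared by groups did not pair the mice: correlations of same-numbered deviations ran between -0.17 and 0.22 in liver and between -0.13 and 0.09 in fat. With the replicate block the diet difference in wild-type mice had 1 of the 9 genes called in liver and 0 in fat. With 3 to 5 arrays per group, small differences of dim probe sets are not detectable.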
